A study of Mus musculus with 16 samples.

Results

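A set of 10 genes of the muscle stretch response was followed through the quadriceps muscle of *Mtm1* knockout (KO) mice, a model of X-linked myotubular myopathy. The genes are 3 muscle ankyrin repeat genes (*Ankrd1*, *Ankrd2* and *Ankrd23*), 4 LIM domain genes (*Csrp3*, *Fhl1*, *Fhl2* and *Fhl3*), the small GTPase gene *Rrad*, and both Xin repeat genes (*Xirp1* and *Xirp2*). These 10 of the 41388 genes of the count table were selected by gene symbol, with their values in all 4 groups of mice already known. Their levels and calls are therefore a description of the members, and a call is not independent evidence that the group responds. All 10 passed the filter on low counts in every comparison.

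The study compared wild-type (WT) with *Mtm1* KO mice, each genotype without and with tamoxifen (+ TAM), with 1 quadriceps library per mouse at 36 days of age on a C57BL/6 background, by the labels. The KO allele lacks exon 4 of *Mtm1*, the gene for the lipid phosphatase myotubularin, in every tissue. Tamoxifen, a drug that binds estrogen receptors, was mixed into the chow at 40 mg/kg from day 21, as the citrate with added sucrose. The paper used 14 of the 16 libraries, 3 per genotype without tamoxifen and 4 per genotype with it, and these were the main set here.

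The libraries held 25116179 to 29847222 counts on genes. In the main set *Mtm1* had 282 to 459 counts in each of the 7 WT and WT + TAM mice and 53 to 97 in each of the 7 KO and KO + TAM mice. The library labelled WT replicate 1, outside the main set, had 74, so that it lay in the range of the KO mice. The other library outside the main set, KO replicate 12, had 85. Markers of skeletal muscle fibers summed to at least 59047 RPKM in each of the 14 libraries. Markers of heart muscle, a tissue rich in *Ankrd1* and *Csrp3*, summed to at most 1.06 RPKM, and *Nkx2-5* and *Gata4* were at 0 counts in all 14.

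Stretch and contraction load the Z disc and the titin filament of the sarcomere, and several proteins held there also reach the nucleus. Muscle ankyrin repeat proteins bind titin at its N2A region and are induced or released when muscle is stretched or injured. The LIM domain is a zinc-binding fold that joins proteins to one another. *Csrp3* encodes the muscle LIM protein of the Z disc, and the FHL proteins are built of repeated LIM domains and shuttle between sarcomere and nucleus. Xin proteins bind actin and gather at adhesion sites and at damaged stretches of myofibril, and *Rrad* encodes a GTPase that restrains calcium channels.

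The members lie on 8 chromosomes of the GRCm38 build, by the GENCODE vM21 annotation. *Ankrd1* (ENSMUSG00000024803) is on the minus strand of chromosome 19 from 36111961 to 36120099, and *Ankrd2* (ENSMUSG00000025172) is on the plus strand of the same chromosome from 42036000 to 42045110. *Ankrd23* (ENSMUSG00000067653) is on the minus strand of chromosome 1 from 36530188 to 36536883. A second annotated gene on that strand, *Gm42417*, covers 78.2% of its exonic bases. *Gm42417* has no row in the count table, so any of its reads in the shared bases cannot be told apart from those of *Ankrd23*. *Csrp3* (ENSMUSG00000030470) is on the minus strand of chromosome 7 from 48830398 to 48848033, and *Rrad* (ENSMUSG00000031880) on the minus strand of chromosome 8 from 104628070 to 104631327. *Fhl1* (ENSMUSG00000023092) lies on the X chromosome from 56731787 to 56793346, on the plus strand. *Fhl2* (ENSMUSG00000008136) and *Ankrd23* share chromosome 1, where *Fhl2* runs on the minus strand from 43123074 to 43196984. *Fhl3* (ENSMUSG00000032643) is on chromosome 4 from 124700701 to 124708611 and *Xirp2* (ENSMUSG00000027022) on chromosome 2 from 67446002 to 67526614, both on the plus strand. *Xirp1* (ENSMUSG00000079243) is on the minus strand of chromosome 9 from 120013755 to 120023598. Of the 50-base words of the members' transcripts, 75.1% in *Ankrd23*, 5.84% in *Rrad*, 4.63% in *Fhl3* and 1.01% in *Xirp2* recurred in transcripts of another annotated gene. No such word was found for the other 6 members. The strand setting of the counting is not given in the sources used here, so reads of *Rrad* and *Xirp2* and of their antisense partners *Gm33023* and *Gm13601* cannot be told apart where they overlap.

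Promoter windows, from 250 bases before to 50 bases after an annotated start, were held by the RefSeq table (GRCm38.p6) for 8 of the 10 members, 12 windows in all. *Ankrd1*, *Ankrd2*, *Ankrd23* and *Fhl2* are shown, the 3 ankyrin repeat genes because they moved in different directions and *Fhl2* because its window held most of the motifs searched. Which start is used in these mice was not measured. Capitals mark M-CAT (CATTCC, bound by TEAD factors), the TATA box (TATAAA), the CArG box of serum response factor and the MEF2 site, each searched on both strands.
*Ankrd1*, chr19:36119795-36120094, minus strand: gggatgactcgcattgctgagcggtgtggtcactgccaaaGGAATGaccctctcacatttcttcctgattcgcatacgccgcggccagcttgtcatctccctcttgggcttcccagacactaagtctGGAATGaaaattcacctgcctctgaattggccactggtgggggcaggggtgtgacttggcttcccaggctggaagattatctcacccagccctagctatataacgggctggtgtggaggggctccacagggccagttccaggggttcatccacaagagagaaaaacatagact
*Ankrd2*, chr19:42035777-42036076, plus strand: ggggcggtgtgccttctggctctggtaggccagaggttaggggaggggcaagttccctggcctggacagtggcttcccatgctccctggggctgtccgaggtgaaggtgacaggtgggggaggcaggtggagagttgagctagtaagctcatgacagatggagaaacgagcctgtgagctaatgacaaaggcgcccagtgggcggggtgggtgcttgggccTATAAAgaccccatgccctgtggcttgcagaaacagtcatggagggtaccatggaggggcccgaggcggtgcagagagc
*Ankrd23*, chr1:36535690-36535989, minus strand: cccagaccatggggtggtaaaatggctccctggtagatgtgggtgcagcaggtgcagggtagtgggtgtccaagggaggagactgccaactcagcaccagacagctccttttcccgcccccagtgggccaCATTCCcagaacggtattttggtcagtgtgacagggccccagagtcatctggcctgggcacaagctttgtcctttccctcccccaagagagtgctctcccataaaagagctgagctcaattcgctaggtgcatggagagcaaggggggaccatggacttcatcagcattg
*Fhl2*, chr1:43196712-43197011, minus strand: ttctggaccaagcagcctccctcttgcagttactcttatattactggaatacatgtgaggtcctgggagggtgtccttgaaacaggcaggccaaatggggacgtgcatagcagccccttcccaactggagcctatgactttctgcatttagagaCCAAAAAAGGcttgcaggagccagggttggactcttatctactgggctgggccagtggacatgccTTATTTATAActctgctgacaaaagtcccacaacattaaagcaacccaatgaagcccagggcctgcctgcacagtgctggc

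The *Ankrd1* window held 2 M-CAT motifs, which begin 210 and 123 bases before the start. M-CAT was in 14.7% of all 32851 windows of this length in the table, and among the 8 members with a window only *Ankrd1* and *Ankrd23* held it. The *Ankrd23* window shown holds 1, which begins 120 bases before the start, and its other window (chr1:36536507-36536806) also holds 1. The *Ankrd2* window had a TATA box 29 bases before the start (13.6% of all windows) and none of the other 3 motifs in capitals. In *Fhl2* a CArG box lay 96 bases before the start (1.63% of all windows) and a MEF2 site 31 bases before it (3.19% of all windows), the latter overlapping the TATA box. A CArG box was also found in the second *Fhl2* window and in 1 of 2 *Fhl1* windows, and a MEF2 site in that of *Xirp2*. Neither *Csrp3* window nor that of *Fhl3* held any of the 4. The E-box (CANNTG, bound by myogenic factors) was found in 72.3% of all windows and the AP-1 site (TGANTCA) in 7.81%, the latter only in *Xirp2* among the members. A match says only that these letters are present in the window.

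Levels are given as RPKM (reads scaled to gene length and to the library total), which can be set side by side between genes. The RPKM values were scaled by total counts only. Against the TMM scaling used for the fold changes, total-count scaling raised the median gene in *Mtm1* KO over WT by 0.31 on the log2 scale and in *Mtm1* KO + TAM over WT + TAM by 0.28. Because whole muscle was used, a change in the number of cells of a type cannot be told apart from a change of RNA per cell.

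In WT muscle the order of the levels was led by *Ankrd23*, at 1590 ± 238 RPKM (SD, n = 3), and no other member came within its range. *Fhl1* (135 ± 101 RPKM) and *Xirp2* (128 ± 15.5 RPKM) followed and overlapped each other. *Fhl3* (79.3 ± 25.9 RPKM), *Ankrd2* (50.4 ± 37.9 RPKM), *Csrp3* (24.1 ± 22.3 RPKM) and *Xirp1* (17.0 ± 0.728 RPKM) came next, each overlapping the one after it. *Ankrd1* (5.10 ± 0.491 RPKM), *Rrad* (2.62 ± 2.25 RPKM) and *Fhl2* (1.10 ± 0.356 RPKM) were lowest, and neighbours among these 3 also overlapped. In WT + TAM the order was the same at its top and bottom, with *Ankrd23* at 1185 ± 360 RPKM (SD, n = 4) and *Fhl2* at 1.06 ± 0.296 RPKM. In *Mtm1* KO muscle *Fhl1* (518 ± 119 RPKM, SD, n = 3) and *Ankrd23* (500 ± 152 RPKM) stood at the top and could not be ordered. *Csrp3* (307 ± 92.3 RPKM) and *Ankrd2* (274 ± 105 RPKM) had the next lower means, but both overlapped *Ankrd23* and each other. *Fhl2* remained lowest, at 4.78 ± 0.814 RPKM in *Mtm1* KO and 6.49 ± 1.17 RPKM in *Mtm1* KO + TAM (SD, n = 4).

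**Figure D1:**
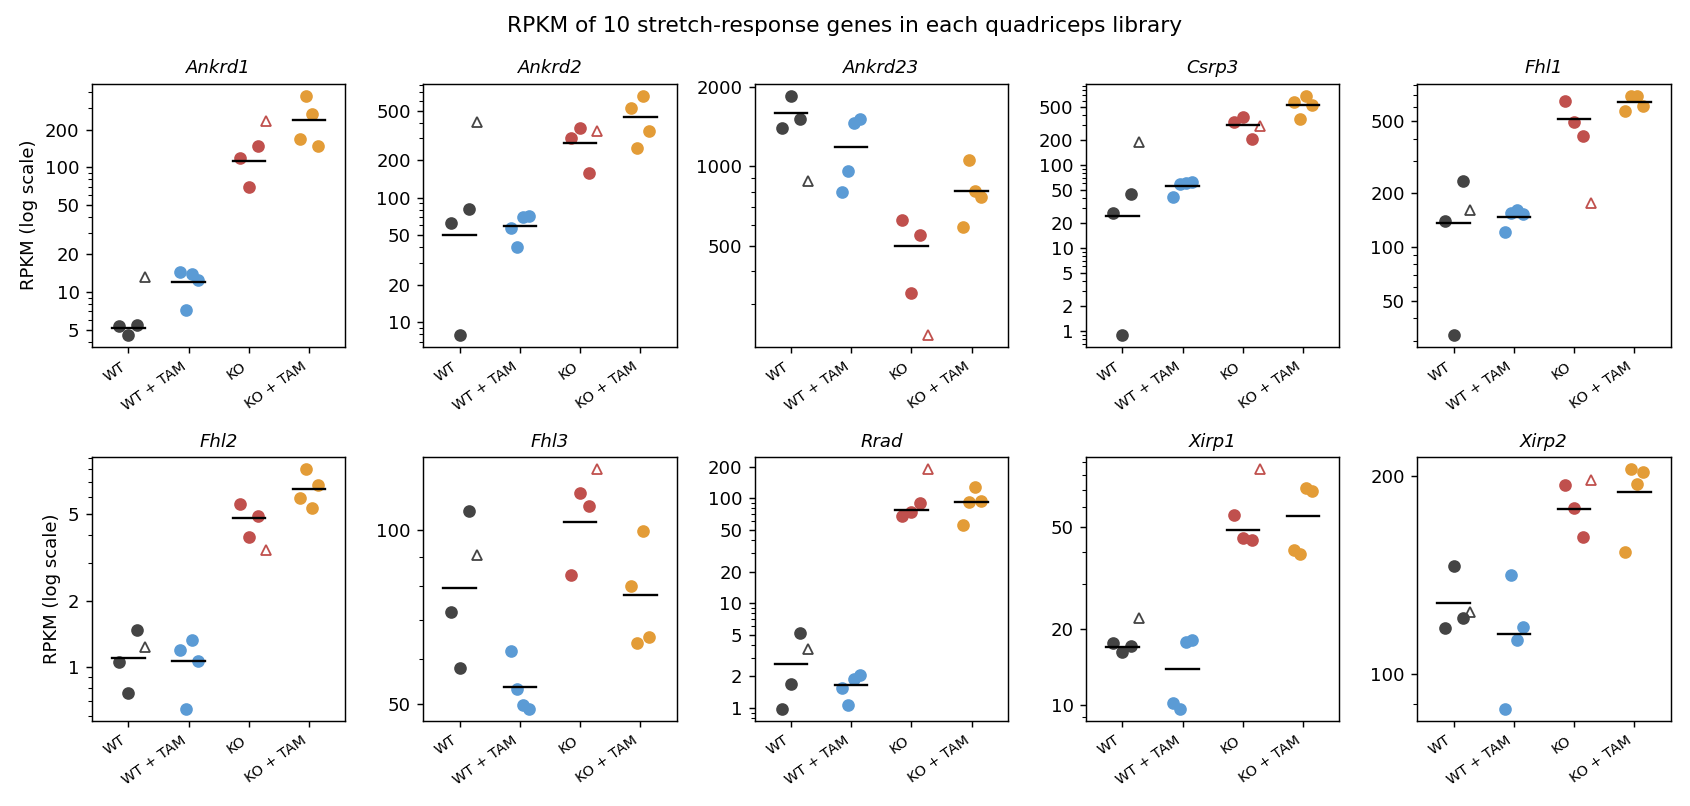
RPKM (log axis) of each member in each library, by group, with 1 panel per gene. Filled circles are the 14 libraries of the main set, bars their group means, and open triangles the pair left out of it, labelled as WT replicate 1 and KO replicate 12. *Ankrd1*, *Rrad*, *Fhl2*, *Xirp1* and *Csrp3* are higher in every KO library than in any WT or WT + TAM library. Among the filled circles this also holds for *Ankrd2* and *Fhl1*, while *Ankrd23* has its lowest mean in KO.

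The comparison of *Mtm1* KO with WT asks which members differ with loss of *Mtm1*. Of the 10 members, 4 rose (*Ankrd1*, *Fhl2*, *Rrad* and *Xirp1*), 1 fell (*Ankrd23*) and 5 did not pass (edgeR quasi-likelihood test, Benjamini-Hochberg adjusted p of at most 0.01). Over all 14740 genes tested, 282 (1.91%) were called higher and 249 (1.69%) lower, 3.6% in all. With scaling by library size alone the split was 1023 higher and 140 lower, and the same number of members (5) passed. The median log2 fold change was 1.73 over the members and 0.02 over all genes tested. In log2 CPM, 7 members had no overlap between the groups with KO higher, and *Ankrd23* had none with KO lower, beside 36.3% of all genes tested in either direction.

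When both genotypes had received tamoxifen, 7 members rose in *Mtm1* KO + TAM over WT + TAM (the 4 above with *Ankrd2*, *Csrp3* and *Fhl1*) and 0 fell. This comparison shares no library with the untreated one. Over its 14563 tested genes, 498 (3.42%) were called higher and 481 (3.3%) lower, 6.72% in all, and with library size scaling 1657 were higher and 217 lower. The median log2 fold change was 2.09 over the members and -0.01 over all genes tested. The groups did not overlap in 7 members, beside 22.5% of all genes. In each of the 2 comparisons 9 fold changes were above 0, and *Ankrd23* was below 0 in both.

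**Figure D2:**
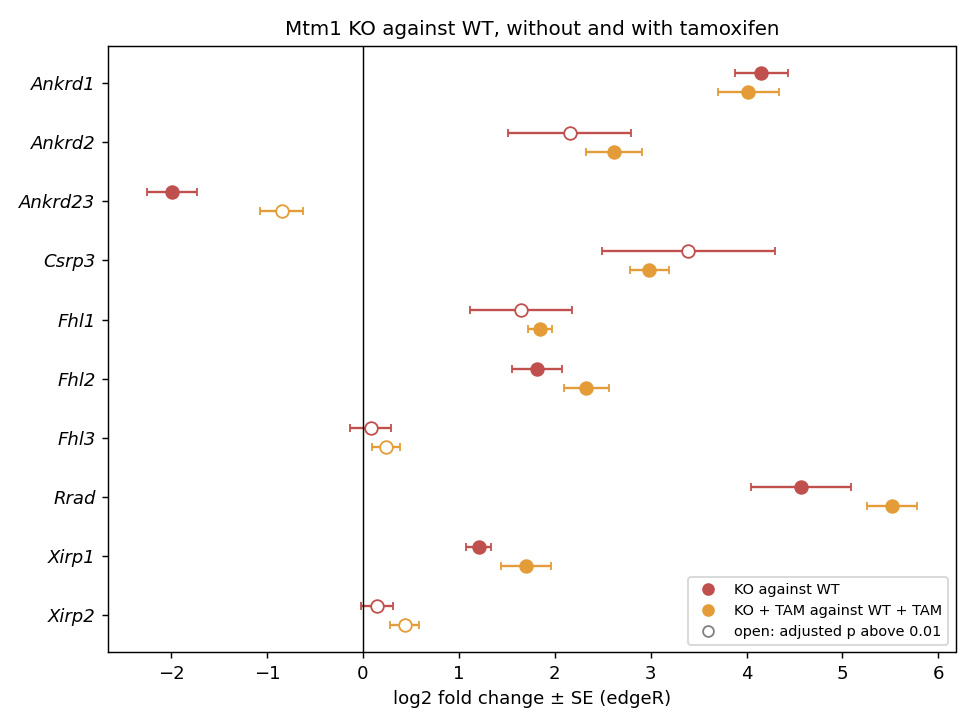
Log2 fold change with its SE (edgeR, horizontal axis) of each member for *Mtm1* KO against WT (red) and *Mtm1* KO + TAM against WT + TAM (orange). Filled circles passed an adjusted p of at most 0.01, which 5 and 7 members did, and *Ankrd23* is the only member to the left of 0.

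*Ankrd1*, the cardiac ankyrin repeat protein gene that is scarce in resting skeletal muscle, had 5.32, 4.54 and 5.45 RPKM in the 3 WT libraries. It had 119, 69.7 and 147 RPKM in *Mtm1* KO. The lowest KO library was above every WT library, and the log2 fold change was 4.16 ± 0.28 (SE, adjusted p = 0.000214). In WT + TAM it had 14.6, 7.18, 13.95 and 12.5 RPKM, and in *Mtm1* KO + TAM 167, 376, 270 and 149 RPKM. Again the groups did not overlap, with a log2 fold change of 4.02 ± 0.32 (adjusted p = 4.74e-05).

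*Ankrd2*, which is enriched in slow fibers and induced by stretch, had 62.2, 7.95 and 81.0 RPKM in WT and 300.3, 363 and 158 RPKM in *Mtm1* KO. The groups were apart, but WT replicate 3 was far below the other WT mice. The log2 fold change of 2.16 ± 0.64 did not pass (adjusted p = 0.058), nor did that of 1.66 without WT replicate 3 (adjusted p = 0.0209). It was 0.60 with all 16 libraries, where the library labelled WT replicate 1 had 404 RPKM. In WT + TAM the 4 values lay between 40.3 and 70.9 RPKM and in *Mtm1* KO + TAM between 249 and 659 RPKM, and *Ankrd2* rose by 2.62 ± 0.29 (adjusted p = 0.000342).

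*Ankrd23*, the diabetes-related ankyrin repeat protein gene, went the other way. WT libraries had 1398, 1856 and 1514 RPKM, and *Mtm1* KO libraries had 623, 330 and 547 RPKM. All KO values were below all WT values, and *Ankrd23* fell by 1.99 on the log2 scale (SE 0.26, adjusted p = 0.00271). It was called in 4 of 6 fits with 1 library left out, and the adjusted p just missed the threshold without WT replicate 4 (log2 fold change -2.04, adjusted p = 0.0101) or KO replicate 11 (-2.08, adjusted p = 0.0104). In WT + TAM it had 800, 957, 1466 and 1517 RPKM and in *Mtm1* KO + TAM 587, 1058, 807 and 762 RPKM. These groups overlapped, and the log2 fold change of -0.85 ± 0.22 did not pass (adjusted p = 0.0255), although it did in DESeq2 and without the filter on low counts.

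The make-up of the ankyrin repeat family therefore differed between genotypes. *Ankrd23* made up 94.6 to 99.3% of the summed RPKM of the 3 genes in the WT libraries and 43.3 to 64.2% in *Mtm1* KO. *Ankrd1* was 0.243 to 0.363% of the sum in WT and 9.14 to 17.3% in *Mtm1* KO, and *Ankrd2* went from 0.425 to 5.06% to 18.5 to 47.6%. With tamoxifen the *Ankrd23* share was 91.8 to 95.3% in WT + TAM and 45.9 to 62.9% in *Mtm1* KO + TAM. The shares did not overlap between genotypes in either diet, whereas within a genotype the untreated and treated *Ankrd23* shares did. The summed level itself was 1645 ± 205 RPKM in WT and 886 ± 143 in *Mtm1* KO (SD, n = 3 each), and with tamoxifen 1256 ± 372 in WT and 1487 ± 257 in KO mice (SD, n = 4 each).

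**Figure D3:**
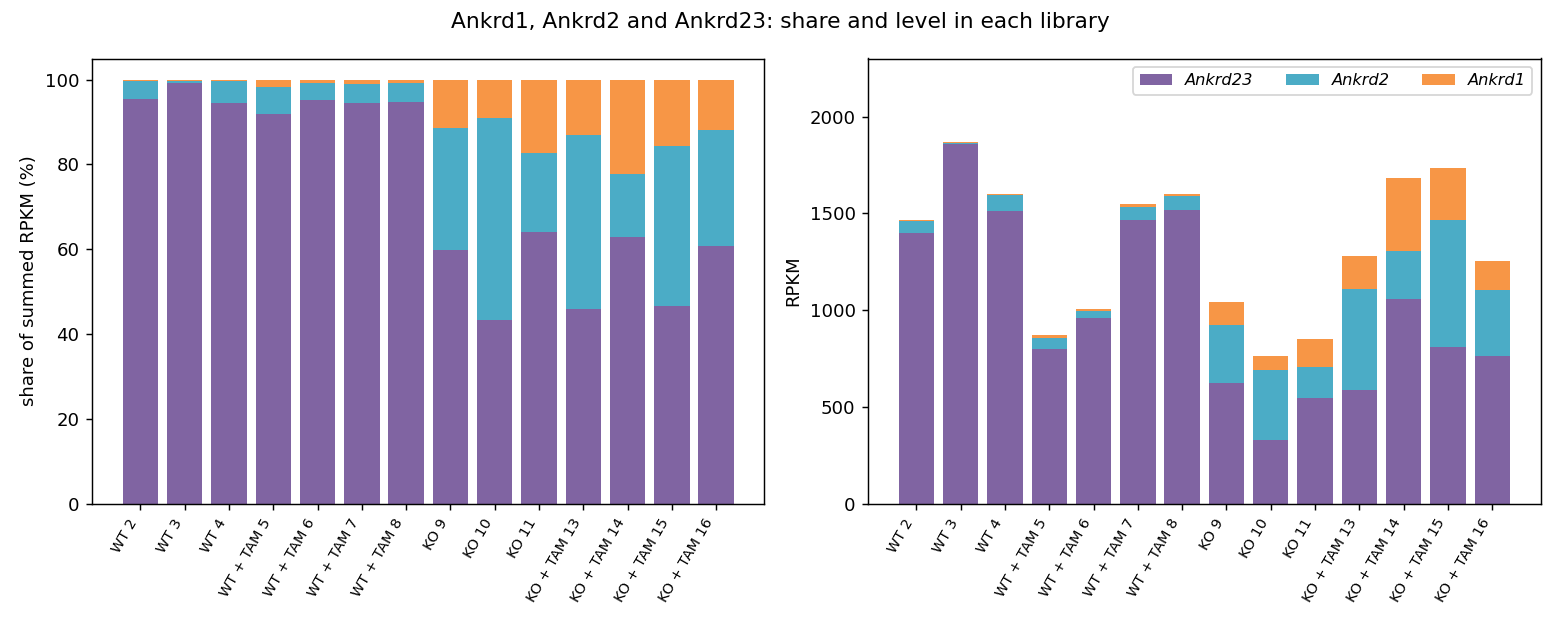
Share of summed RPKM in percent (left) and RPKM (right) of *Ankrd23* (purple), *Ankrd2* (blue) and *Ankrd1* (orange), stacked for each of the 14 libraries, named by group and replicate. *Ankrd23* is at least 91.8% of the sum in the 7 WT and WT + TAM libraries and 43.3 to 64.2% in the 7 KO and KO + TAM libraries.

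*Csrp3*, the muscle LIM protein gene that is strong in heart and slow fibers, had 26.0, 0.894 and 45.3 RPKM in WT, the middle value being only 24 counts in replicate 3. *Mtm1* KO libraries had 333, 384 and 205 RPKM. The groups were far apart, but the spread among the WT mice left the log2 fold change of 3.39 ± 0.90 short of the threshold (adjusted p = 0.0402). Without WT replicate 3 it was 2.83 and passed (adjusted p = 0.00268). In the other 5 fits with 1 library left out it ran from 3.21 to 4.25, the latter without WT replicate 4, and did not pass (adjusted p from 0.0525 to 0.101). It passed without the filter on low counts and in 1 fit of all groups, and with all 16 libraries it was 1.76 (adjusted p = 0.359). In WT + TAM the 4 values lay between 41.2 and 62.5 RPKM and in *Mtm1* KO + TAM between 362 and 688 RPKM, and *Csrp3* rose by 2.99 ± 0.20 (adjusted p = 2.33e-05).

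*Fhl1*, the main FHL gene of skeletal muscle, had 140, 32.4 and 234 RPKM in WT and 648, 493 and 413 RPKM in *Mtm1* KO. WT replicate 3 was again the lowest, and the log2 fold change of 1.65 ± 0.53 did not pass (adjusted p = 0.0722). Nor did that of 1.19 without WT replicate 3 (adjusted p = 0.0375) or 2.31 without WT replicate 4 (adjusted p = 0.041). With all 16 libraries it was 1.24 (adjusted p = 0.207). In WT + TAM the range was 121 to 161.0 RPKM and in *Mtm1* KO + TAM 569 to 695 RPKM, and *Fhl1* rose by 1.84 ± 0.13 (adjusted p = 2.33e-05).

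*Fhl2*, the family member known best from heart, was scarce, with 1.06, 0.765 and 1.47 RPKM in WT (40 to 77 counts) and 5.53, 3.91 and 4.88 RPKM in *Mtm1* KO (193 to 274 counts). The groups did not overlap, and it rose by 1.81 ± 0.26 (adjusted p = 0.0042). With 1 library left out the call was lost in 4 of 6 fits (adjusted p from 0.0140 to 0.0193), in which the log2 fold change was 1.65 to 1.77. With tamoxifen it had 0.648 to 1.33 RPKM in WT and 5.30 to 7.99 RPKM in *Mtm1* KO, a log2 fold change of 2.33 ± 0.24 (adjusted p = 0.000197).

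*Fhl3*, which is abundant in muscle and acts in myoblast differentiation, differed from the other FHL genes. It had 72.2, 57.7 and 108 RPKM in WT and 83.7, 116 and 110 RPKM in *Mtm1* KO, and the groups overlapped. The log2 fold change was 0.08 ± 0.22 in the untreated comparison (adjusted p = 0.841) and 0.25 ± 0.15 in the treated comparison (adjusted p = 0.27). Its share of the summed RPKM of the 3 FHL genes was 31.4 to 63.5% in WT and 11.4 to 20.9% in *Mtm1* KO, beside a sum of 216 ± 126 and 626 ± 105 RPKM (SD, n = 3 each).

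*Rrad* had the largest fold change of the members in both genotype comparisons. It had 0.986, 1.68 and 5.18 RPKM in WT (44, 73 and 225 counts) and 67.0, 73.4 and 89.4 RPKM in *Mtm1* KO. WT replicate 4 was the highest WT mouse and still lay far below every KO mouse, and *Rrad* rose by 4.57 ± 0.52 (adjusted p = 0.00134). Without WT replicate 4 the log2 fold change was 5.51 (adjusted p = 0.00114). In WT + TAM it had 1.54, 1.06, 1.90 and 2.05 RPKM and in *Mtm1* KO + TAM 55.9, 91.8, 127 and 93.7 RPKM, with a log2 fold change of 5.51 ± 0.26 (adjusted p = 1.4e-06).

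*Xirp1*, the gene of Xin, which marks damaged and remodelling myofibrils, had 17.6, 16.2 and 17.2 RPKM in WT and 55.9, 45.4 and 44.6 RPKM in *Mtm1* KO. The WT values were close together and all below the KO values, and *Xirp1* rose by 1.21 ± 0.13 (adjusted p = 0.00121). In WT + TAM the 4 values fell into a lower pair (10.2 and 9.72 RPKM) and a higher pair (17.7 and 18.0 RPKM), and in *Mtm1* KO + TAM likewise (40.7 and 39.1, then 71.0 and 69.6 RPKM). The treated groups were still apart, with a log2 fold change of 1.70 ± 0.26 (adjusted p = 0.00173).

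*Xirp2*, the larger Xin gene, was the more abundant of the pair in every library. It had 117, 122 and 146 RPKM in WT and 162, 179 and 194 RPKM in *Mtm1* KO, which do not overlap as deposited but do after TMM scaling. The log2 fold change was 0.15 ± 0.17 in the untreated comparison (adjusted p = 0.588) and 0.44 ± 0.15 in the treated comparison (adjusted p = 0.0696). The *Xirp1* share of both Xin genes was 9.95 to 13.01% in WT and 20.2 to 22.4% in *Mtm1* KO.

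Slow fiber genes were read beside these values. Their summed RPKM (9 genes, among them *Myh7* and *Tnni1*) was 30.6 to 367 in WT and 214 to 768 in *Mtm1* KO, and in the treated mice 39.2 to 190 and 174 to 533. Group means of RPKM were higher in *Mtm1* KO for 8 of the 9 genes and in *Mtm1* KO + TAM for 9 of 9, and 0 and 2 (*Tnni1* and *Atp2a2*) passed. By the fitted log2 fold change, after TMM scaling, *Myl3* was below 0 in both comparisons (-0.58 ± 1.16 untreated and -0.06 ± 0.77 treated). WT replicate 3, low in *Csrp3*, *Ankrd2* and *Fhl1*, was also the lowest in mean log2 CPM of the slow fiber genes (2.003, beside 5.88 and 6.59 in the other WT libraries). WT + TAM replicate 6 was at 2.86, beside 5.22 to 5.89, and its *Csrp3* was 58.5 RPKM, within the range of its group.

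Within each genotype (n = 7 mice, treated and untreated together) the level of each member was set against the slow fiber level, 20 relations in all. None passed an adjusted p of at most 0.05 in an exact two-sided permutation test, while 5 had an unadjusted p for r of at most 0.05 and 1 for rho. The strongest was *Ankrd2* in WT and WT + TAM, with r = 0.86 (exact p = 0.00952, adjusted p = 0.149) and rho = 0.64 (exact p = 0.139, adjusted p = 0.659). Without WT replicate 3 and WT + TAM replicate 6, the 2 mice farthest from the median, its r was 0.20, so the relation rests on those mice. In the same 7 mice *Csrp3* had r = 0.64 (exact p = 0.139, adjusted p = 0.399) and rho = 0 (exact p = 1, adjusted p = 1), and r = -0.51 without these 2. *Fhl1* had r = 0.74 (exact p = 0.0496, adjusted p = 0.198) and rho = 0.43 (exact p = 0.354, adjusted p = 0.659), and r = 0.49 without them. *Fhl2* had r = 0.84 (exact p = 0.0224, adjusted p = 0.149) and rho = 0.79 (exact p = 0.048, adjusted p = 0.659), and r = 0.43 without them. *Xirp2* had the opposite sign, with r = -0.82 (exact p = 0.0208, adjusted p = 0.149) and rho = -0.64 (exact p = 0.139, adjusted p = 0.659), and r = -0.024 without them. In *Mtm1* KO and *Mtm1* KO + TAM the r farthest from 0 was that of *Ankrd1*, at -0.76 (exact p = 0.0462, adjusted p = 0.198), with rho = -0.57 (exact p = 0.2, adjusted p = 0.659), and -0.78 without the 2 mice farthest from the median. Leaving out 2 mice could also move r away from 0. *Fhl3* in WT and WT + TAM went from 0.45 to 0.985, and *Fhl1* in *Mtm1* KO and *Mtm1* KO + TAM from -0.13 to -0.81. No test was run on the r without 2 mice.

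**Figure D4:**
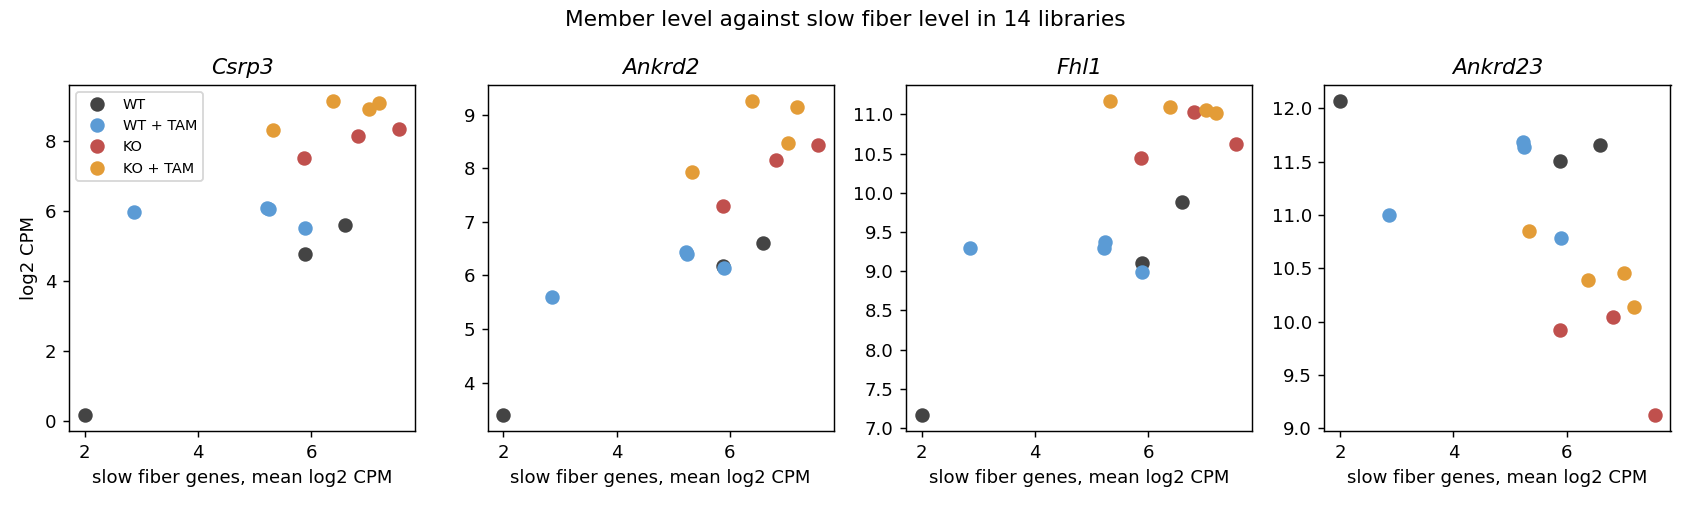
Log2 CPM of *Csrp3*, *Ankrd2*, *Fhl1* and *Ankrd23* (vertical axes, which do not start at 0) against the mean log2 CPM of 9 slow fiber genes (horizontal axis) in the 14 libraries, colored by group. WT replicate 3, at 2.003 on the horizontal axis, is the lowest library for the first 3 genes and the highest for *Ankrd23*.

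Markers of other cell types also differed with genotype in RPKM as deposited. These values were scaled by total counts only, which raised the median gene in *Mtm1* KO over WT by 0.31 on the log2 scale. With tamoxifen the shift was 0.28. The sums and means were not recomputed after TMM scaling, where small differences such as that of the fibroblast markers may not hold. Fibroblast markers (5 of 5 found) summed to 460 to 789 RPKM in WT and WT + TAM and 805 to 1174 in both KO groups, with higher means for 4 of 5 untreated and 5 of 5 treated. Macrophage markers summed to 14.6 to 43.1 RPKM in WT and WT + TAM and 46.5 to 106 in KO and KO + TAM, with higher means for 5 of 5 in both comparisons. Summed markers of skeletal muscle fibers were 87828 to 105178 RPKM in WT and WT + TAM and 59047 to 80391 in KO and KO + TAM, with lower means for 6 of 6. These 6 were *Ckm*, *Acta1*, *Mylpf*, *Tnnt3*, *Tnni2* and *Myh4*, and none is a gene of the slow fiber list. Slow fiber genes went the other way, with higher mean RPKM for 8 of 9 untreated and 9 of 9 treated, so the lower sum does not cover all fiber types. After TMM scaling *Myl3* was at -0.06 on the log2 scale in the treated comparison. Satellite cell markers summed to at most 2.29 RPKM, and the sums of endothelial (at most 77.6 RPKM), smooth muscle (144 to 221 RPKM) and fat cell markers (9.65 to 225 RPKM) overlapped between genotypes. The part of fiber type and of these cell types in the members' values was not tested.

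The comparison of WT + TAM with WT asks which members differ with the tamoxifen diet in healthy muscle. The paper gave untreated mice standard chow and reports lower body weight at the high dose in both genotypes. Drug, diet and body weight therefore cannot be told apart in the tamoxifen comparisons. None of the 10 members passed in edgeR, beside 19 of 14544 genes (0.131%). Before adjustment 2 members and 1549 genes (10.7%) had a p of at most 0.05, and DESeq2 called 1 member and 214 genes (1.47%). *Ankrd1* came nearest, with a log2 fold change of 1.25 ± 0.24 (adjusted p = 0.0561). Its 4 WT + TAM values, from 7.18 to 14.6 RPKM, lay above all 3 WT values, and it was the only member without overlap, beside 11.4% of all genes tested. *Ankrd1* passed in DESeq2, without the filter on low counts and without WT + TAM replicate 6 (adjusted p = 0.00432), and over its alternatives the adjusted p ran from 4.46e-05 to 0.698. With all 16 libraries, where the library labelled WT replicate 1 had 13.3 RPKM, its log2 fold change was 0.65. The other members ranged from -0.67 (*Rrad*) to 1.24 (*Csrp3*, SE 0.77).

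The comparison of *Mtm1* KO + TAM with *Mtm1* KO asks whether the members differ with the tamoxifen diet in diseased muscle. None of the 10 members and 0 of 15062 genes (0%) passed in edgeR, where 5 members and 1137 genes (7.55%) had an unadjusted p of at most 0.05. DESeq2 called 72 genes (0.478%) and no member. The fitted values were above 0 in 9 members and ran from 0.13 (*Xirp2*) to 1.12 (*Ankrd1*), and *Fhl3* was at -0.38. *Csrp3* had the lowest adjusted p (0.346), with a log2 fold change of 0.85 ± 0.24, and *Ankrd1* followed at 1.12 ± 0.32 (adjusted p = 0.35). *Ankrd1* and *Ankrd23* (0.72 ± 0.24, adjusted p = 0.461) had no overlap in log2 CPM, both with tamoxifen higher, beside 7.7% of 15046 genes. In RPKM the *Ankrd23* groups did overlap, with 587 in KO + TAM replicate 13 and 623 in KO replicate 9. By the fitted values the direction of *Ankrd23* was toward the WT level. That of *Ankrd1*, *Ankrd2*, *Csrp3*, *Fhl1*, *Fhl2*, *Rrad*, *Xirp1* and *Xirp2* was away from it. *Fhl3* went down from a fitted KO level 0.08 above WT. With each library left out in turn, no member passed and none changed direction.

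The difference between both tamoxifen effects was tested as an interaction. None of the 10 members passed, of 15556 genes 0 passed (0%), and 1 member and 664 genes (4.27%) had an unadjusted p of at most 0.05, whereas DESeq2 called 12 genes (0.0855%) and no member. *Ankrd23* had the lowest p, with an effect in *Mtm1* KO that exceeded that in WT by 1.17 ± 0.37 on the log2 scale (adjusted p = 0.916). Its WT + TAM fold change against WT was -0.44 ± 0.23 and that of *Mtm1* KO + TAM against *Mtm1* KO was 0.72 ± 0.24. The *Ankrd1* difference was -0.11 ± 0.44 (adjusted p = 0.9998).

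**Figure D5:**
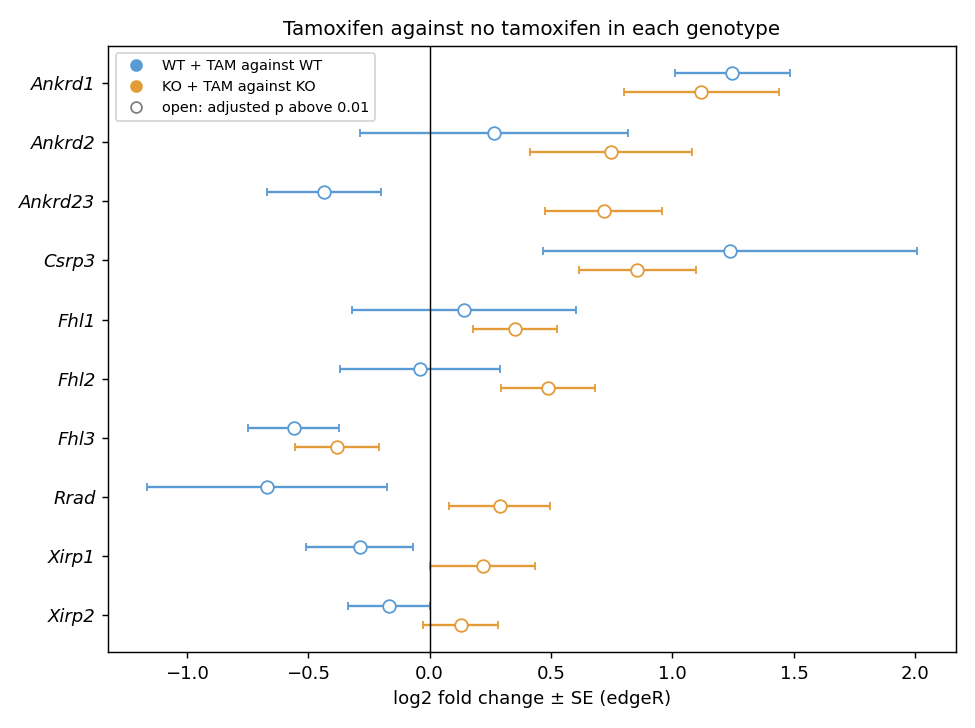
Log2 fold change with its SE (edgeR, horizontal axis) of each member for WT + TAM against WT (blue) and *Mtm1* KO + TAM against *Mtm1* KO (orange). All circles are open, since 0 members passed an adjusted p of at most 0.01, and *Ankrd1* has the highest value in both.

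Genes related to the members were read from lists. Of 7 family relatives, 4 passed the filter in the untreated genotype comparison. *Csrp2*, a LIM gene of smooth muscle and fibroblasts, had group means of 7.73 RPKM in WT and 17.3 in *Mtm1* KO. Its log2 fold change was 0.85 ± 0.23 (adjusted p = 0.0438), and in the treated genotype comparison it rose by 1.03 ± 0.19 (adjusted p = 0.00431). *Csrp1*, the broadly expressed member of that family, had 0.35 ± 0.11 (adjusted p = 0.0763) and 0.38 ± 0.14 (adjusted p = 0.0788). *Gem* and *Rem1*, GTPases of the *Rrad* family, had 0.28 ± 0.31 and 0.02 ± 0.32 untreated and 0.73 ± 0.22 and 0.19 ± 0.22 treated, none of which passed. *Fhl4*, *Fhl5* and *Rem2* were not tested in these 2 comparisons.

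Among titin and Z disc partners, 1 of 21 rose in *Mtm1* KO, 2 fell and 18 did not pass, with a median of -0.24. *Flnc*, filamin C, rose by 0.81 ± 0.14, while *Actn3*, the alpha-actinin of fast fibers, fell by 1.36 and *Capn3*, a titin-bound protease, by 0.94. In the treated comparison 2 rose (*Myoz2* and *Actn2*) and 3 fell. Of other stretch-linked genes, 5 of 9 tested rose and 0 fell, with a median of 1.27. *Mustn1*, a gene of the musculoskeletal system, rose by 3.11 ± 0.25, *Cryab*, a small heat shock protein gene, by 1.57 ± 0.16 and *Lmcd1*, another LIM domain gene, by 1.36 ± 0.21. In *Mtm1* KO + TAM against WT + TAM 5 rose and 1 (*Ky*) fell.

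YAP with TEAD, and MRTF with SRF, pass mechanical load on to transcription. Of YAP and TEAD target genes 1 of 13 tested rose in *Mtm1* KO and 0 fell, with a median of 0.22. This list holds none of the members, so *Ankrd1* is not counted in it. The called gene, *Ctgf*, encodes a matricellular protein and rose by 2.202 ± 0.13 (adjusted p = 0.000165). In the treated comparison 2 rose (*Ctgf* and *Cyr61*) and 1 fell (*Amotl2*). Of 9 genes for YAP, TAZ, TEAD factors and cofactors, only *Tead4* was called, with 1.66 ± 0.26 untreated and 1.56 ± 0.22 treated. In the list of SRF and MRTF with their targets, 2 of 18 rose (*Egr2* by 2.54 ± 0.30 and *Egr1* by 1.82 ± 0.25, both immediate early genes) and *Mkl1*, which encodes MRTF-A, fell by 1.06. In *Mtm1* KO + TAM against WT + TAM 2 of 18 rose (*Egr1* and *Junb*) and *Srf* fell by 0.77.

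The denervation and regeneration list had the largest share of calls among these lists. All of them were chosen with earlier results of these data known, so these shares are a description. In *Mtm1* KO 7 of 9 rose, with a median of 2.196, beside 1.91% of all genes tested. In *Mtm1* KO + TAM 9 of 9 rose, with a median of 1.75, beside 3.42% of all genes tested. *Myh3*, embryonic myosin, rose by 3.89 ± 0.44, *Chrng*, the fetal acetylcholine receptor subunit, by 3.65 ± 0.43, and *Runx1*, a transcription factor induced by denervation, by 2.75 ± 0.22.

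The genes whose log2 CPM ran most nearly parallel to each member over the 14 libraries were sought outside the members. The libraries of both genotypes are pooled in these coefficients, so that any gene that separates the genotypes scores high. *Ankrd1* ran with *Qsox1* (r = 0.98), *Tmem158* (r = 0.97) and *Cdkn1a* (r = 0.97). *Rrad* ran with *Raph1*, *Runx1* and *Sln* (r = 0.98 each), and *Xirp1* with *Emp1* (r = 0.97), *Gm13889* (r = 0.97) and *Msn* (r = 0.96). *Fhl1* (r = 0.99) and *Csrp3* (r = 0.96) both had *Myom3*, an M band gene of slow and intermediate fibers, as the nearest gene. *Ankrd2* had *Actn2*, *Hspb7* and *Myom3* (r = 0.96 each), *Hspb7* being also in the lists of *Csrp3* (r = 0.93) and *Fhl1* (r = 0.95). *Csrp3* was also near *Myoz2* (r = 0.96) and *Fhl1* near *Lrrn1* (r = 0.96). *Fhl2* ran with *Arf6* (r = 0.97), *Myh3* (r = 0.96) and *Myl12a* (r = 0.96). *Ankrd23* ran with *Ppp3r1* (r = 0.96), which encodes the calcineurin regulatory subunit, *Rnf139* (r = 0.96) and *Ksr1* (r = 0.95). The nearest genes of the 2 members called in neither genotype comparison had lower coefficients, *Mab21l2* (r = 0.87), *Penk* (r = 0.86) and *Sctr* (r = 0.83) for *Fhl3*, and *Zdhhc13* (r = 0.92), *Mapk1ip1l* (r = 0.87) and *Dstyk* (r = 0.87) for *Xirp2*.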

How the data were processed

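RNA from quadriceps of 16 mice was analysed from a table of raw counts and a table of RPKM values. The deposited counts were made by the authors by aligning reads to GRCm38 with STAR and counting them on genes with HTSeq. Per the submitters' processing notes the tools were bcl2fastq 2.17, STAR 2.5.0c and Cufflinks 2.2.1. The deposited RPKM values were scaled by the authors to total counts and gene length. Annotation, counting mode and strand setting were not stated in the sources at hand. All per-sample columns were used.

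Counts of the 2 groups compared were fitted with edgeR 4.0.16 (R 4.3.3) after TMM normalization and filterByExpr (minimum count 10, minimum total 15), with its quasi-likelihood test. P-values were adjusted by Benjamini-Hochberg over all genes tested, and genes with an adjusted p up to 0.01, the threshold of the paper, were called. Fold changes are on the log2 scale. Standard errors of edgeR fold changes were derived as the absolute log2 fold change divided by the square root of the quasi-likelihood F statistic. The interaction came from 1 fit of the 4 groups. The main set was the 14 libraries of the paper, which gives no reason for leaving out the other 2. The paper describes the mice as littermates, assigned at random to the diets. Which mice shared a litter is not given in the sources used here, so litter is not in the fits. The p-values treat the mice as independent. Log2 CPM used a prior count of 2. Relations with slow fiber genes used exact permutation tests over pairings of 7 mice, adjusted over 20. The fitting step was tested on simulated data.

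The members and gene lists were chosen with earlier results of these data known. The genes named were all members, all family relatives, the 3 genes nearest to each member by Pearson r, and up to 3 genes of each list with the largest change among those called in KO against WT. *Gm* partners, genes called in the other comparisons and marker genes were named after their values were seen. Alternatives were DESeq2 1.42.0, RLE and library size scaling, no filter, a threshold of 0.05, 1 fit of all groups, 16 libraries and leaving out 1 library at a time. Positions are from GENCODE vM21 and promoter windows from RefSeq (GRCm38.p6). *Rrad* and *Xirp1* had no window.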

Additional observations from a re-analysis of the deposited data

Results flagged for a closer look

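Within groups of 4 libraries, 40 sets of member RPKM values were examined for a value far from the other 3, and 1 was found, where chance flags about 1 in 20. The library labelled WT replicate 1 had 13.3 RPKM of *Ankrd1*, beside 4.54 to 5.45 in the other WT libraries, with a gap of 0.896 of the range.

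The 2 libraries outside the main set held members above all 3 WT libraries of that set. In the library labelled WT replicate 1, whose *Mtm1* counts were in the KO range, this was so for *Ankrd1* (13.3 RPKM), *Ankrd2* (404 RPKM), *Csrp3* (188 RPKM) and *Xirp1* (22.0 RPKM). Its *Ankrd23* (882 RPKM) was below all 3 of these WT libraries and above the KO libraries of the main set. Its *Rrad* (3.62 RPKM), *Fhl2* (1.24 RPKM), *Fhl1* (161 RPKM), *Fhl3* (90.8 RPKM) and *Xirp2* (124 RPKM) were within the WT range. Its slow fiber genes summed to 1463 RPKM, above every library of the main set.

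KO replicate 12 lay above all 3 WT libraries in *Ankrd1* (233 RPKM), *Ankrd2* (343 RPKM), *Csrp3* (299 RPKM), *Fhl2* (3.43 RPKM), *Fhl3* (128 RPKM), *Rrad* (189 RPKM), *Xirp1* (84.4 RPKM) and *Xirp2* (197 RPKM). Its *Fhl1* (176 RPKM) was within the WT range and below the other KO libraries, and its *Ankrd23* (229 RPKM) was the lowest of all 16 libraries.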

How the results depend on the processing

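Of 750 recomputed member fold changes, 710 kept their direction and their side of the threshold, 13 newly passed, 7 no longer passed and 20 changed sign, none of the last called in either setting. No paired analysis was possible because no replicate number is shared between groups. In *Mtm1* KO against WT, 8 members were called without the filter on low counts, and 3 to 5 with 1 library left out, the 3 without KO replicate 11. In WT + TAM against WT, DESeq2 and the fit without the filter each called 1 member (*Ankrd1*), and leaving out 1 library 0 to 1, the 1 without WT + TAM replicate 6. With all 16 libraries *Xirp1* was not called in *Mtm1* KO against WT (adjusted p = 0.0226). With library size scaling *Xirp2* was called in *Mtm1* KO + TAM against WT + TAM (adjusted p = 0.00632). The cause was not tested.

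Genes called in *Mtm1* KO against WT (531) were 1885 at a threshold of 0.05, 1678 with DESeq2, 1163 with library size scaling, 1096 without the filter, 987 in 1 fit of all groups, 211 with 16 libraries and 182 to 363 with 1 left out. In *Mtm1* KO + TAM against WT + TAM (979) they were 2476, 1995 and 1874 under the first 3 and 424 to 921 with 1 left out. In WT + TAM against WT (19) they were 80 at 0.05, 214 with DESeq2, 81 without the filter, 39 in 1 fit, 12 with 16 libraries and 2 to 21 with 1 left out. In *Mtm1* KO + TAM against *Mtm1* KO (0) they were 72 with DESeq2, 12 without the filter, 2 in 1 fit and 0 to 1 with 1 left out. The interaction (0) gave 12 with DESeq2.

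With 16 libraries the sign changed in WT + TAM against WT for *Ankrd2* (-1.39) and *Csrp3* (-0.39), in *Mtm1* KO + TAM against *Mtm1* KO for *Rrad* (-0.21) and *Xirp1* (-0.067), and in the interaction for *Ankrd1* (0.0926) and *Csrp3* (1.23). With 1 library left out, *Fhl3* ran from -0.071 to 0.35 in *Mtm1* KO against WT. In WT + TAM against WT, *Ankrd2* ran from -0.23 to 0.79, *Fhl1* from -0.31 to 0.80, *Fhl2* from -0.21 to 0.22 and *Rrad* from -1.07 to 0.27. In the interaction, *Ankrd1* ran from -0.41 to 0.16, *Ankrd2* from -0.045 to 0.98, *Csrp3* from -1.23 to 0.18, *Fhl1* from -0.44 to 0.67 and *Fhl3* from -0.083 to 0.34. Without the 2 mice farthest from the median slow fiber level, r changed sign in WT and WT + TAM for *Ankrd1* (-0.70), *Csrp3* (-0.51) and *Xirp1* (-0.24), and in KO and KO + TAM for *Ankrd2* (-0.38), *Csrp3* (-0.37) and *Xirp1* (-0.70). Counts were lowest for *Csrp3* (24, in WT replicate 3), *Fhl2* (33) and *Rrad* (44) in their lowest libraries.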
